A study of Mus musculus with 12 samples.

Results

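Of the 12 libraries of this mouse study, 6 held 25% of their counts or less in the adult globin genes Hba-a1, Hba-a2, Hbb-bs and Hbb-bt, 3 of them from wild-type (WT) animals and 3 from animals lacking nuclear myosin 1 (KO). These globin-poor libraries were the ones labelled blood WT 03, blood WT 04 and spleen WT 01 against blood KO 04, spleen KO 01 and spleen KO 04. They were chosen by their globin share, which is therefore a description only. It ran from 0.846% (95% Wilson interval 0.842 to 0.849) in spleen WT 01 to 5.89% (5.88 to 5.90) in blood WT 03, and the next library, blood WT 01, stood at 48.9% (48.8 to 48.9). Such intervals account for counting error alone and take each count as independent. The reads carried no molecular identifiers, so copies of a molecule could not be set apart.

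All 12 libraries came from C57/Bl6 mice 8 months old, and the KO groups carried the NM1 deletion with no other allele or treatment named. Blood was drawn from the submandibular vein, and spleen was a piece of about 5 mm3 from the organ's tip. Libraries were made from 500 ng of total RNA each, and the 6 globin-poor libraries held 23.1 to 28.2 M counts. Whether each library came from its own mouse was not stated, so p-values measure the spread between libraries. Tissue label and genotype were not balanced: WT had 2 libraries labelled blood and 1 labelled spleen, and KO had 1 and 2. The tissue label was therefore also fitted as a term and the genotypes compared within each label, and these values are given beside many of the lists and genes that they moved.

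Nuclear myosin 1 is a product of Myo1c, which encodes an actin-based motor of the class I myosins, and it works in the nucleus with RNA polymerases and chromatin remodelling complexes. The spleen filters blood in its red pulp, where macrophages take up old red cells and recycle their iron. Its white pulp holds B cells, T cells and dendritic cells, and antibody-secreting plasma cells settle between these compartments. In mice the red pulp also makes red cells and granulocytes.

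Markers of red pulp macrophages were present in all 6 libraries, those labelled blood included. Vcam1, an adhesion molecule of these cells, stood at 319 and 410 counts per M counts (CPM, scaled by the trimmed mean of M-values) in blood WT 03 and blood WT 04, 227 in blood KO 04, 304 in spleen WT 01, and 244 and 361 in spleen KO 01 and spleen KO 04. Spic, the transcription factor that directs their formation, ranged from 46.8 to 59.5 CPM. Cd5l, a secreted macrophage protein, ranged from 43.0 to 81.2 CPM. WT and KO overlapped in each of these genes. The 21 genes of the red pulp macrophage list summed to 1836 to 2903 unscaled CPM here and to 207 to 501 in the 6 globin-rich libraries, a separation that moves with the globin share used to choose the libraries. The blood labels of blood WT 03, blood WT 04 and blood KO 04 therefore go against these markers, and each is called below the library labelled so.

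The libraries differed from each other mainly in a direction that ran with their cell cycle genes and, more loosely, with their erythroid genes. The first principal component of log CPM held 68.8% of the variance and placed the libraries, from low to high, as blood KO 04 (-47.7), blood WT 03 (-40.3), blood WT 04 (-17.4), spleen KO 01 (-4.15), spleen KO 04 (44.7) and spleen WT 01 (64.8). All 3 libraries labelled blood lay on one side, and WT and KO were interleaved. The 31 erythroid genes other than globin summed to 24367, 24263 and 27793 CPM in blood KO 04, blood WT 03 and blood WT 04. The sums in the libraries labelled spleen were 13052 in spleen KO 01, 5976 in spleen KO 04 and 2245 in spleen WT 01. Among the libraries labelled blood the erythroid sums did not follow the order of the component. Cell cycle sums, also in the plot of summed lists, followed it throughout, from 13535 CPM in blood KO 04 to 2192 in spleen WT 01.

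**Figure D1:**
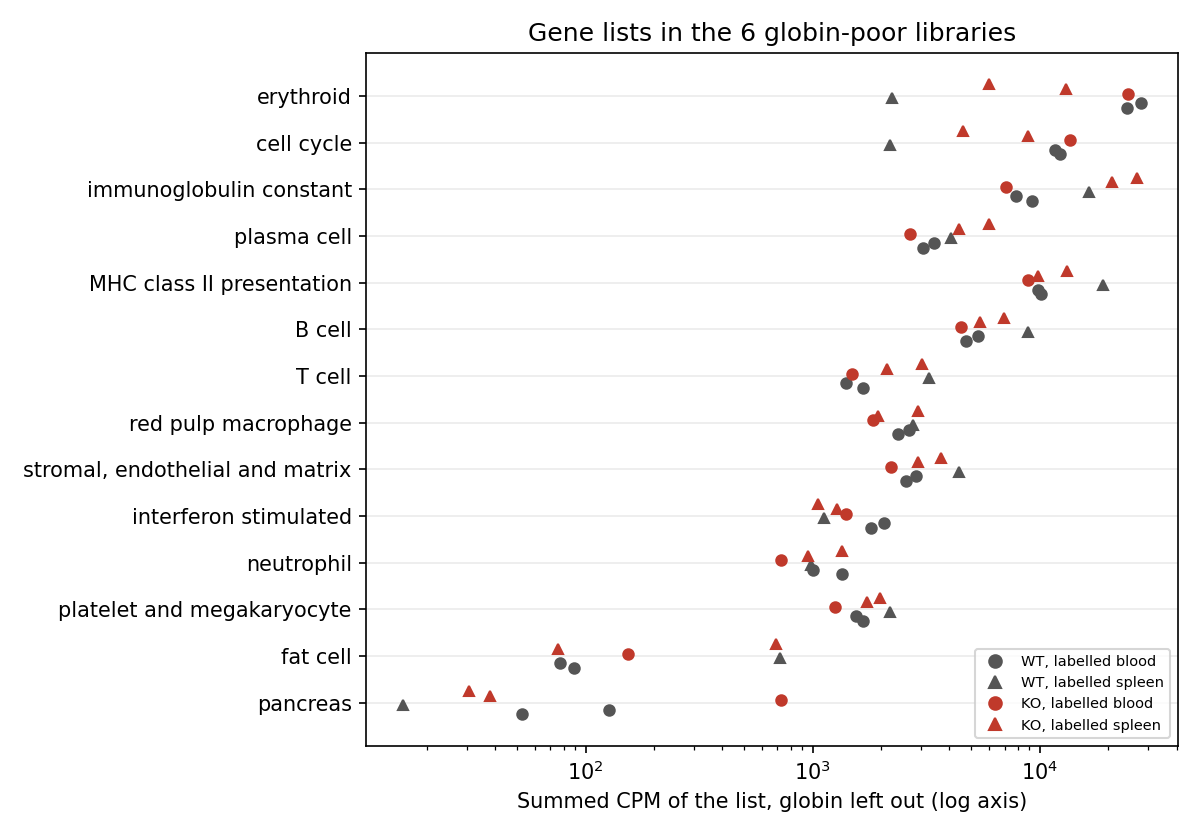
Summed unscaled CPM (counts per M counts without globin, log axis) of 14 gene lists, 1 point per globin-poor library, coloured by genotype and shaped by tissue label. Erythroid sums run from 2245 to 27793 CPM and follow the tissue label more closely than the genotype, and the pancreas sum of 728 CPM in blood KO 04 stands apart from the other 5 libraries.

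No gene differed between KO and WT past the threshold. edgeR's quasi-likelihood test called 0 of 16413 genes higher (0%) and 0 lower at a Benjamini-Hochberg adjusted p under 0.05, with a smallest adjusted p of 1.00. At an unadjusted p under 0.05 there were 145 genes (0.883%), 65 higher (0.396%) and 80 lower (0.487%) in KO. limma-voom called 0 genes (121 before adjustment). DESeq2 called 5, all higher in KO (0.0305%), and had 164 before adjustment. With the tissue label as a term edgeR again called 0 genes. Its smallest adjusted p was then 0.732, and 831 genes (5.06%) had an unadjusted p under 0.05. Every KO library lay above every WT library in 288 genes (1.75%) and below in 347 (2.11%).

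The 5 genes that DESeq2 called, named here after their values were seen, were all variable segments of the immunoglobulin kappa light chain. A B cell joins 1 of many such segments to a joining segment when it builds its antibody, so a segment's messenger RNA comes from cells that chose it. The germline ends of these segments are shown because reads are assigned to a segment by such bases, beside Igkv5-39, the segment with the most counts in 4 of the 6 libraries. They are the last 100 bases of the GENCODE vM21 transcript, 5′ to 3′ on the coding strand. Capitals mark the bases after the conserved cysteine codon, where the antigen-binding loop encoded by the joint begins.
Igkv12-41: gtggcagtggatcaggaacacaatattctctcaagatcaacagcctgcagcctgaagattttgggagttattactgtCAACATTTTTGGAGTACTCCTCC
Igkv9-124: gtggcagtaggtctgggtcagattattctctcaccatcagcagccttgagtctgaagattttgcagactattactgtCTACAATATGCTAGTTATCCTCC
Igkv3-4: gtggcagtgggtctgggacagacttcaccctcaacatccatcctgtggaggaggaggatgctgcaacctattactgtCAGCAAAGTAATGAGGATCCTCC
Igkv3-2: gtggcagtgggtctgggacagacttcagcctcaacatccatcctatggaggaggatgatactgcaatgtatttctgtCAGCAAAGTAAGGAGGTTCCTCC
Igkv14-130: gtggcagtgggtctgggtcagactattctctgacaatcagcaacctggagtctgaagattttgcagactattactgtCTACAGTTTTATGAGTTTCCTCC
Igkv5-39: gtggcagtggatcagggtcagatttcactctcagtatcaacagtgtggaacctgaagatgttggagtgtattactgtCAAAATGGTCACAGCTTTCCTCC

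On GRCm38 these segments lie in the kappa locus, Igkv12-41 at chr6:69858420-69858884 (minus strand), Igkv9-124 at chr6:67942074-67942540 (minus), Igkv3-4 at chr6:70671788-70672377 (plus), Igkv3-2 at chr6:70698449-70699067 (plus), Igkv14-130 at chr6:67791046-67791511 (plus) and Igkv5-39 at chr6:69900424-69900977 (minus). Between 65.9% and 100% of the 50-base stretches of each transcript occur in no other immunoglobulin transcript of the annotation. Reads from the shared stretches, and from hypermutated copies, can be split between segments, so the values of single segments are uncertain.

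Igkv12-41 stood at 2.99, 5.05 and 6.44 CPM in blood WT 03, blood WT 04 and spleen WT 01, and at 32.9, 21.4 and 115 in blood KO 04, spleen KO 01 and spleen KO 04. Igkv9-124 stood at 4.20, 5.05 and 5.44 CPM in the WT libraries in that order, and at 19.8, 21.9 and 65.4 in the KO libraries. In both segments every KO library was above every WT library, and spleen KO 04 was the highest. The log2 fold change of KO over WT was 3.54 ± 0.70 (SE, n = 3 against 3) for Igkv12-41 and 2.86 ± 0.50 for Igkv9-124, each with an adjusted p of 1.00 in edgeR and of 7.0e-05 in DESeq2.

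Igkv3-4 was at 7.98, 12.7 and 10.5 CPM in WT and at 57.6, 18.98 and 72.5 in KO, in the same order of libraries. Igkv3-2 was at 6.93, 10.7 and 16.5 CPM in WT and at 29.4, 37.8 and 43.3 in KO. Igkv14-130 was at 0.839, 0.648 and 0.534 CPM in WT and at 3.14, 1.95 and 3.32 in KO. Again no KO library overlapped a WT library. The log2 fold changes were 2.26 ± 0.48, 1.69 ± 0.34 and 2.06 ± 0.39, with DESeq2 adjusted p of 0.0194, 0.0269 and 0.0269 and edgeR adjusted p of 1.00. With the tissue label as a term the log2 fold changes of all 5 ran from 1.51 for Igkv3-2 to 3.21 for Igkv12-41, and the edgeR adjusted p of each was 0.732.

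Summed over the 160 kappa variable segments in the files, the counts followed the tissue label: 538, 736 and 587 unscaled CPM in blood WT 03, blood WT 04 and blood KO 04, against 1559, 2585 and 3172 in spleen WT 01, spleen KO 01 and spleen KO 04. The 5 segments together held 3.73% of kappa variable counts in blood WT 03 (95% Wilson interval 3.40 to 4.09), 4.57% (4.27 to 4.89) in blood WT 04 and 2.85% (2.69 to 3.02) in spleen WT 01. They held 21.2% (20.5 to 21.9) in blood KO 04, 4.06% (3.92 to 4.21) in spleen KO 01 and 10.8% (10.5 to 11.0) in spleen KO 04. The share in spleen KO 01 lay within the WT range. Leaving Igkv5-39 out of the kappa counts was a choice made after seeing the data. The share was then 3.74% to 4.78% in the WT libraries. It was 21.7% in blood KO 04, 9.16% in spleen KO 01 and 13.7% in spleen KO 04, each above WT. The 5 segments were picked for being higher in these same KO libraries, so these shares are a description only.

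Igkv5-39 shows how far a single segment varied among libraries. It took 55.7% (95% Wilson interval 55.4 to 56.1) of kappa variable counts in spleen KO 01, 23.7% in spleen WT 01, 21.8% in spleen KO 04, 20.3% in blood WT 03, 4.38% in blood WT 04 and 2.22% in blood KO 04. Its log2 fold change was 2.06 ± 1.39 (edgeR adjusted p 1.00), and -0.36 with the tissue label as a term. Of 90 kappa segments tested, 75 had a log2 fold change above 0, where 7865 of all 16413 genes did (47.9%), and their median was 0.61, where that of all genes was -0.01. That median was 0.19 with the label term, -0.38 within the blood label and 0.72 within the spleen label. The 84 heavy chain variable segments had a median of 0.87, and of -0.58 within the blood label and 0.80 within the spleen label.

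**Figure D2:**
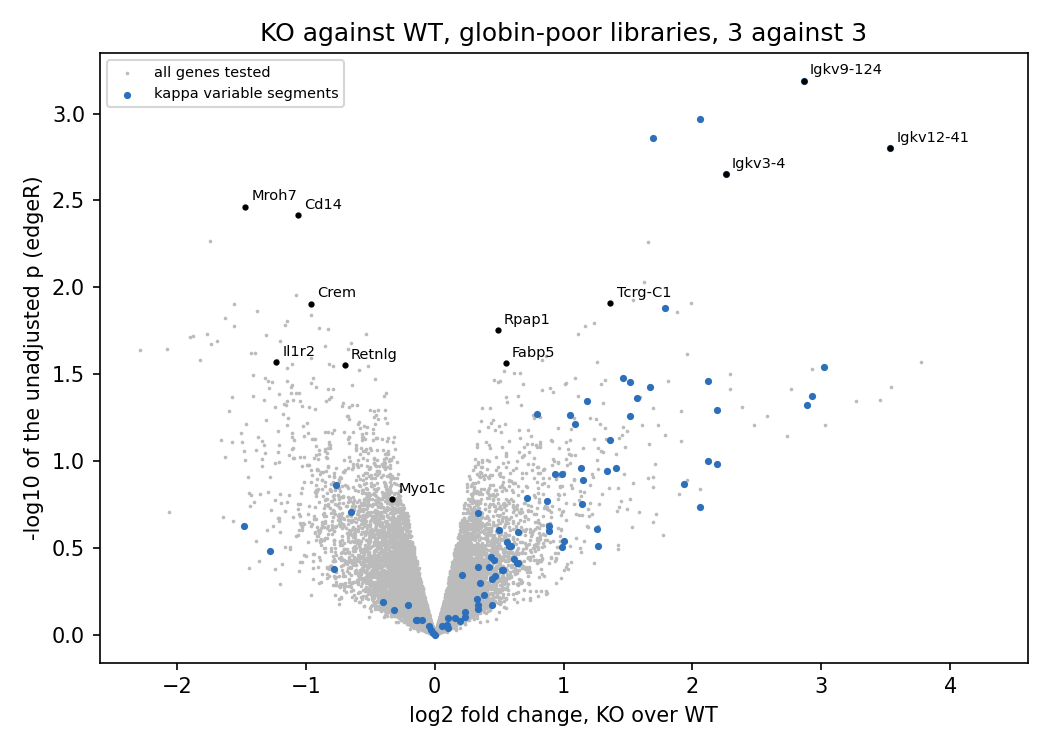
Log2 fold change of KO over WT against -log10 of the unadjusted edgeR p, 1 point per gene for the 16413 genes tested in the 3 KO and 3 WT globin-poor libraries, with kappa variable segments in blue. Igkv9-124 and Igkv12-41 stand at the upper right with log2 fold changes of 2.86 and 3.54, Mroh7 and Cd14 lead the left side, and no point passes adjustment.

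The IgG constant regions Ighg2b, Ighg2c and Ighg3 were higher in the KO libraries labelled spleen than in the other 4 libraries. Ighg2b, an IgG heavy chain, stood at 254, 90.6 and 480 CPM in blood WT 03, blood WT 04 and spleen WT 01, and at 172, 2691 and 1452 in blood KO 04, spleen KO 01 and spleen KO 04. Ighg2c stood at 118, 54.3 and 373 CPM in WT and at 263, 1151 and 1264 in KO. Ighg3 stood at 22.9, 85.3 and 177 CPM in WT and at 114, 238 and 2959 in KO. In all 3, blood KO 04 lay within the range of WT. The log2 fold changes were 2.39 ± 1.00 for Ighg2b, 2.29 ± 0.85 for Ighg2c and 3.54 ± 1.37 for Ighg3 (edgeR, adjusted p 1.00 each). With the label term they were at 1.05, 1.65 and 2.13, and within the blood label at -0.01, 1.61 and 1.08. Of 12 constant genes 10 lay above 0 with a median of 0.46, which was -0.08 within the blood label.

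Plasma cell genes followed the same libraries. Of 27 tested members of the plasma cell list 24 lay above 0 with a median of 0.32. That median was 0.16 with the label term, -0.11 within the blood label, and 0.31 within the spleen label. Derl3, which helps draw misfolded proteins out of the endoplasmic reticulum, was at 8.29, 10.8 and 14.7 CPM in WT and at 10.1 (blood KO 04), 22.4 and 39.2 in KO. Fkbp11, a folding enzyme of secretory cells, was at 3.88, 3.59 and 4.13 CPM in WT and at 3.95, 7.91 and 9.97 in KO. Both overlapped only through blood KO 04. Their log2 fold changes were 1.08 ± 0.48 and 0.91 ± 0.37, and that of Creld2, an endoplasmic reticulum chaperone, was 0.58 ± 0.28 (edgeR adjusted p 1.00 each). With the label term Derl3 was at 0.58, Fkbp11 at 0.61 and Creld2 at 0.38, and within the blood label at 0.08, 0.08 and 0.13. In bulk tissue, fewer cells of a type and less RNA per cell cannot be told apart, here and in the lists that follow.

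Cd14 and Crem were among the genes with the smallest p on the lower side. Cd14, the co-receptor through which macrophages and monocytes sense bacterial lipopolysaccharide, was at 40.0, 25.4 and 37.5 CPM in blood WT 03, blood WT 04 and spleen WT 01, and at 17.3, 12.7 and 19.4 in blood KO 04, spleen KO 01 and spleen KO 04. Crem, a transcription factor that answers to cyclic AMP, was at 40.2, 21.7 and 41.0 CPM in WT and at 20.2, 14.0 and 18.7 in KO. Every KO library lay below every WT library in both genes. The log2 fold change was -1.06 ± 0.25 for Cd14 (p 0.00383 before adjustment) and -0.96 ± 0.29 for Crem (p 0.0124 before adjustment), and the edgeR adjusted p was 1.00 for each. With the tissue label as a term they were at -1.07 and -0.97, and within the blood label at -0.92 and -0.62. Cd14 and Crem were chosen for a small p and groups that do not overlap. Genes named below from a list were taken for a small p within it, whether or not the groups overlapped. The separation of all these genes is therefore a description.

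Neutrophil genes had their lowest sum in blood KO 04, at 726 unscaled CPM against 956 to 1353 in the other 5 libraries. Il1r2, a decoy receptor that binds interleukin 1, was at 15.6, 9.85 and 15.2 CPM in WT and at 3.09, 4.44 and 9.73 in KO. Retnlg, a secreted protein of mature neutrophils, was at 53.7, 51.1 and 86.1 CPM in WT and at 32.1, 41.3 and 44.3 in KO. Mmp8, a granule collagenase, was at 13.1, 12.9 and 12.9 CPM in WT and at 6.83, 8.69 and 11.4 in KO. All 3 had every KO library below WT, with blood KO 04 the lowest, and log2 fold changes of -1.23 ± 0.44, -0.70 ± 0.25 and -0.53 ± 0.24 (edgeR adjusted p 1.00). Within the blood and the spleen label Il1r2 was at -2.04 and -1.10, and Mmp8 at -0.92 and -0.36. The neutrophil list as a whole split by label: 20 of 26 genes lay below 0 with a median of -0.19, which was -0.62 within the blood label and 0.42 within the spleen label. Hdc, the enzyme that makes histamine, was at 26.2, 33.8 and 32.7 CPM in WT and at 8.30, 15.4 and 28.4 in KO, with a log2 fold change of -0.83 ± 0.41, or -1.85 within the blood label and -0.58 within the spleen label. Mcpt8, a basophil protease, had one of -0.84 ± 0.44. The list of eosinophils, basophils and mast cells had 9 of 11 tested genes below 0 with a median of -0.17, which was -1.02 within the blood label and 0.02 within the spleen label.

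**Figure D3:**
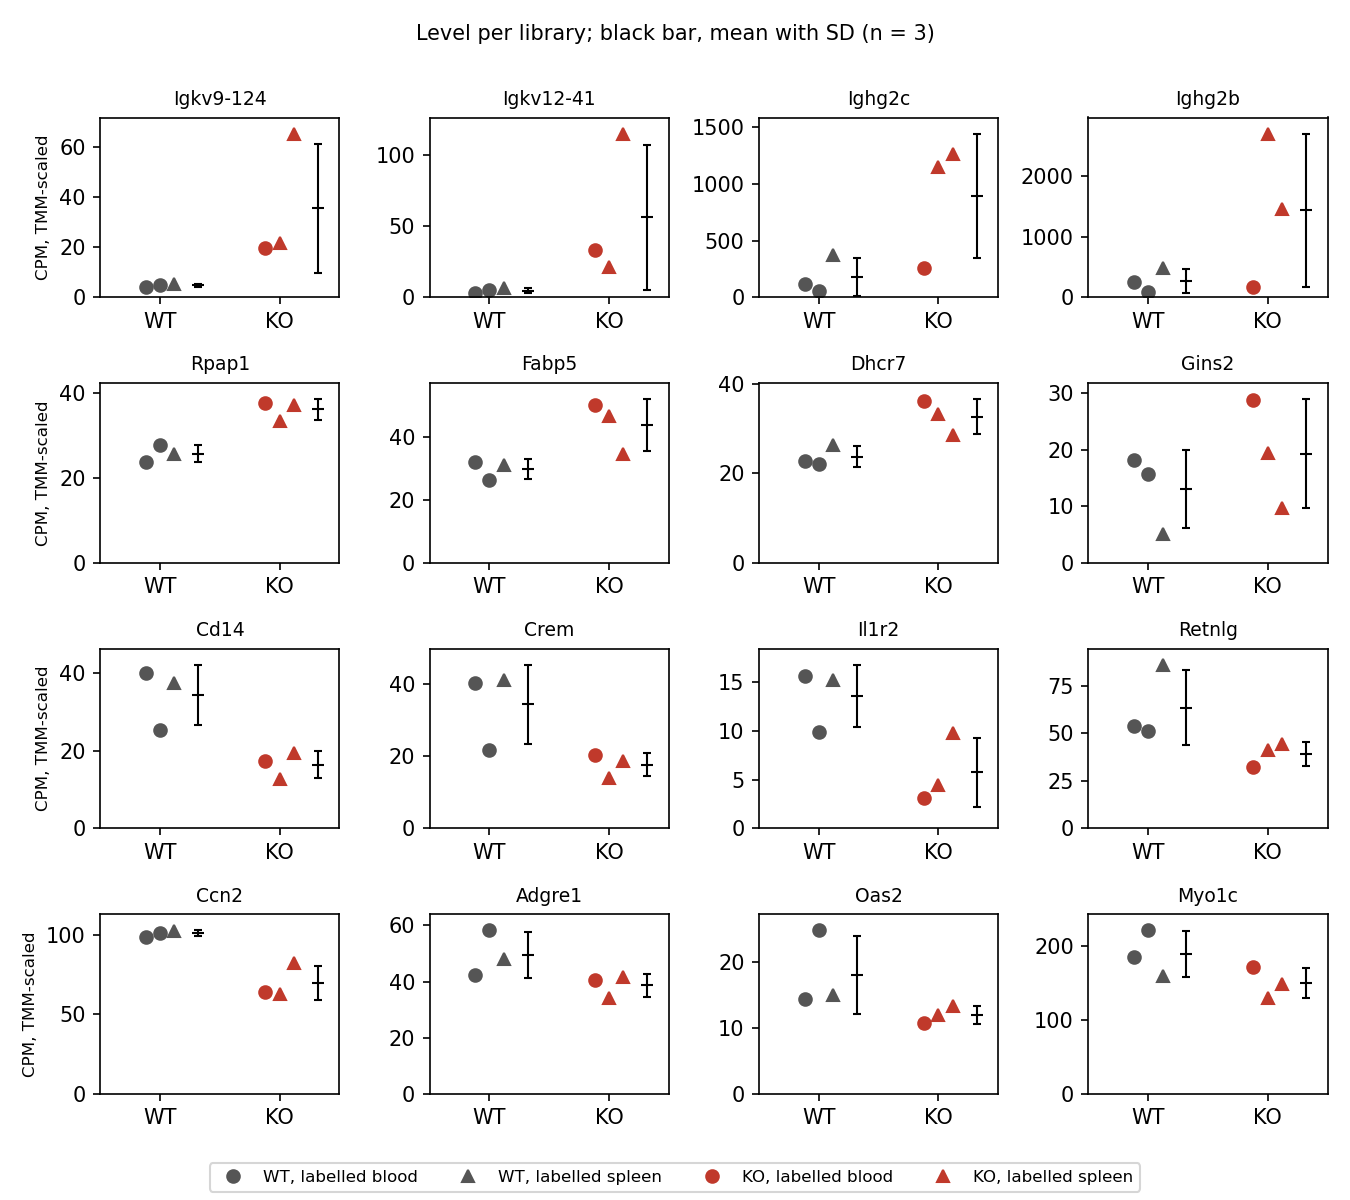
Scaled CPM of 16 genes in each globin-poor library, WT at left and KO at right of each panel, with the mean and SD of the 3 libraries as a black bar. Cd14, Crem, Il1r2 and Retnlg have every KO library below every WT library, Igkv9-124 and Igkv12-41 have every KO library above, and in Ighg2c and Ighg2b the KO library labelled blood lies within the WT range.

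Genes of macrophages and dendritic cells lay slightly below 0 almost throughout. The red pulp macrophage list had 20 of 21 genes below 0 with a median of -0.23, and medians of -0.30 with the label term, -0.32 within the blood label and -0.13 within the spleen label. Adgre1, which encodes the macrophage surface protein F4/80, was at 42.2, 58.2 and 47.9 CPM in WT and at 40.5, 34.1 and 41.7 in KO, with no overlap and a log2 fold change of -0.35 ± 0.19. Mertk, a receptor for the uptake of dying cells, was at -0.34 ± 0.18, and Slc11a1, a metal transporter of the phagosome, at -0.32 ± 0.20, both with overlap. None of these passed the test (edgeR adjusted p 1.00). The 3 marker genes had log2 fold changes of -0.31 ± 0.26 for Vcam1, -0.07 ± 0.16 for Spic and -0.13 ± 0.27 for Cd5l. Within the blood and the spleen label they were at -0.69 and -0.01 for Vcam1, -0.05 and 0.04 for Spic, and -0.24 and 0.31 for Cd5l.

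The dendritic cell list had 17 of 18 genes below 0 with a median of -0.27. Esam, an adhesion molecule of a splenic dendritic cell subset and of endothelium, was at 28.0, 27.4 and 34.2 CPM in WT and at 20.5, 23.3 and 26.6 in KO. Cadm1, an adhesion molecule of cross-presenting dendritic cells, was at 56.3, 47.2 and 55.9 CPM in WT and at 41.4, 42.5 and 43.8 in KO. Both had every KO library below WT, with log2 fold changes of -0.35 ± 0.19 and -0.32 ± 0.16, and Cd209a, a lectin of these cells, had -0.58 ± 0.30 (edgeR adjusted p 1.00). Of 11 genes of MHC class II presentation, 10 lay below 0 with a median of -0.24, among them H2-DMb1, which helps load peptides, at -0.34 ± 0.23 and H2-Aa, a class II chain, at -0.33 ± 0.29. The class II median was -0.11 within the blood label and -0.59 within the spleen label. B cell genes had 17 of 20 below 0 with a median of -0.18, with Vpreb3 at -0.36 ± 0.20 and the complement receptor Cr2 at -0.36 ± 0.29. Without spleen WT 01, the library with the highest B cell sum (8851 CPM), the dendritic cell median was -0.06 and the B cell median 0.03.

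Interferon-stimulated genes had their highest sums in the WT libraries labelled blood. The 27 genes summed to 1803 and 2056 unscaled CPM in blood WT 03 and blood WT 04 and to 1399 in blood KO 04. The libraries labelled spleen had sums of 1127 in spleen WT 01, 1284 in spleen KO 01 and 1050.2 in spleen KO 04. Of the 27 genes 25 lay below 0, with a median of -0.26 that was -0.43 within the blood label and -0.04 within the spleen label. Oas2, an antiviral enzyme that makes short adenylate chains, was at 14.4, 24.8 and 15.0 CPM in WT and at 10.7, 11.9 and 13.3 in KO, and its relative Oasl2 was at 24.6, 33.0 and 23.3 in WT and at 18.6, 23.1 and 20.0 in KO. Neither overlapped, with log2 fold changes of -0.59 ± 0.26 and -0.39 ± 0.21 (edgeR adjusted p 1.00), which were -0.25 and -0.12 within the spleen label.

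Complement genes included the 3 chains of C1q, the recognition protein of the classical pathway, which macrophages make. C1qa was at -0.39 ± 0.25, C1qb at -0.37 ± 0.24 and C1qc at -0.34 ± 0.22 on the log2 scale, and C1qc alone of the 3 did not overlap, at 213 to 281 CPM in WT and 156 to 211 in KO. The list had 14 of 20 genes below 0 with a median of -0.22, and 0.02 without spleen WT 01. Of 20 tested cytokines and chemokines 17 lay below 0 with a median of -0.14, led by Ccl22, a chemokine for regulatory T cells, at -0.66 ± 0.34, or -0.21 within the blood label and -1.21 within the spleen label.

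Platelet genes, which the study's title puts first, were centred at no difference in these libraries, where their level was low. The list summed to 1257 to 2195 unscaled CPM here and to 6326 to 18483 in the globin-rich libraries. In the globin-rich libraries its median log2 fold change was -0.94. Of 30 genes of platelets and megakaryocytes 13 lay above 0, with a median of -0.02 that was 0.00 or above under the scalings by DESeq2 size factors or by library size. It was -0.25 within the blood label, where 2 of 30 lay above 0 (51.4% of all genes did), and 0.33 within the spleen label, where 24 of 30 did (50.9% of all genes). Selp, the adhesion receptor P-selectin of platelet granules and endothelium, was at 2.05, 2.76 and 1.56 CPM in WT and at 1.37, 1.81 and 1.77 in KO, a log2 fold change of -0.36 ± 0.35. Clu, the secreted chaperone clusterin that platelets also carry, had -0.29 ± 0.29. The 24 signalling genes shared by platelets and leukocytes had a median of -0.09. With genotype alone none of these genes reached an unadjusted edgeR p under 0.05, where 0.883% of all genes did. Selp was at -0.82 within the blood label and 0.19 within the spleen label.

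On the higher side, several genes of lipid synthesis and handling had KO libraries above WT. Dhcr7, an enzyme of the last steps of cholesterol synthesis, was at 22.7, 22.0 and 26.4 CPM in blood WT 03, blood WT 04 and spleen WT 01, and at 36.2, 33.3 and 28.5 in blood KO 04, spleen KO 01 and spleen KO 04. Fabp5, a fatty acid carrier, was at 32.1, 26.1 and 31.1 CPM in WT and at 50.04, 46.4 and 34.4 in KO. Their log2 fold changes were 0.46 ± 0.18 and 0.55 ± 0.20. Elovl6, a fatty acid elongase, had 0.66 ± 0.25 and Agk, a lipid kinase of mitochondria, 0.50 ± 0.19 (edgeR adjusted p 1.00 for all 4). Within the spleen label they were smaller, at 0.23 for Dhcr7, 0.38 for Fabp5, 0.41 for Elovl6 and 0.31 for Agk. These 4 were among the 12 with the smallest p and were grouped after their values were seen, and no lipid list was examined.

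The other higher genes had varied roles. Rpap1, a protein that binds RNA polymerase II, had the smallest SE of the 12, at 23.9, 27.7 and 25.8 CPM in WT and at 37.8, 33.5 and 37.3 in KO, with a log2 fold change of 0.49 ± 0.16. Ada, the enzyme that breaks down adenosine, was at 7.42 ± 1.15 CPM (SD, n = 3) in WT and 11.4 ± 1.60 in KO. Gadd45g, a stress-induced growth regulator, was at 12.3 ± 0.548 in WT and 17.3 ± 2.38 in KO. Tcrg-C1, a constant region of the T cell receptor gamma chain, stood at 1.73, 2.81 and 2.17 CPM in WT and at 7.08, 7.20 and 3.04 in KO, a log2 fold change of 1.36 ± 0.41. The low-level genes Gna14, a G protein subunit, Rab15, a small GTPase, and Fam227a had log2 fold changes of 1.17 ± 0.38, 0.83 ± 0.30 and 1.24 ± 0.40. The T cell list as a whole had 15 of 26 genes above 0 with a median of 0.06, which was -0.16 with the label term, and its member Tcf7, a T cell transcription factor, was at 0.32 ± 0.36, or 0.03 with the label term.

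Several lower genes belong to connective tissue. Ccn2, a matrix-associated growth factor, was at 98.7, 101 and 103 CPM in WT and at 63.8, 63.0 and 81.9 in KO, with a log2 fold change of -0.53 ± 0.18. Adamtsl2, a protein of matrix microfibrils, was at 36.0, 47.6 and 36.8 CPM in WT and at 22.1, 22.6 and 32.1 in KO, with -0.65 ± 0.22. Loxl2, which crosslinks collagen, had -0.83 ± 0.27, and Pdgfd, a growth factor for mesenchymal cells, had -1.20 ± 0.41. None passed the test (edgeR adjusted p 1.00). The list of stromal, endothelial and matrix genes, which holds none of the genes just named, had 27 of 33 below 0 with a median of -0.24. Its members with the smallest p were Stab1, a scavenger receptor of sinus endothelium, at -0.47 ± 0.21, Cnn1, a smooth muscle protein, at -0.39 ± 0.21 and Acta2, smooth muscle actin, at -0.38 ± 0.21. Stab1 was at -0.21 within the blood label and -0.83 within the spleen label. The median of the list was 0.02 without spleen WT 01.

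Among the remaining lower genes Mroh7 had the smallest p of those the naming rule took (0.00343 before adjustment, edgeR adjusted p 1.00). It was at 1.99, 1.99 and 1.81 CPM in WT and at 0.658, 0.639 and 0.778 in KO, a log2 fold change of -1.47 ± 0.35. Casq2, a calcium-storing protein of muscle, was at 2.37 ± 0.219 CPM (SD, n = 3) in WT and 1.12 ± 0.141 in KO. Bcl2l14, of the Bcl2 family, was at 9.14 ± 2.68 in WT and 4.90 ± 0.480 in KO. Cyp26b1, which breaks down retinoic acid, had a log2 fold change of -1.16 ± 0.37, Lbhd2 of -1.38 ± 0.42 and Neto2, a membrane protein known as a partner of glutamate receptors, of -0.85 ± 0.29. Hspb1, a small heat shock protein, was at -0.57 ± 0.27 without overlap, while its list of 20 chaperones had a median of -0.01.

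Erythroid and cell cycle genes turned on which libraries were compared. With genotype alone, 29 of 31 erythroid genes lay below 0 with a median of -0.29. That median was 1.20 with the tissue label as a term, 0.01 within the blood label and 2.50 within the spleen label, where the single WT library, spleen WT 01, had the lowest erythroid sum of all. Bpgm, which makes the red cell's oxygen-release factor, was at 475, 759 and 81.3 CPM in WT and at 441, 309 and 192 in KO, with log2 fold changes of -0.48 ± 0.73 overall and 1.63 within the spleen label. Xpo7, a nuclear export protein abundant in red cell precursors, had -0.85 ± 0.82 overall and 0.67 within the spleen label. Cell cycle genes had a median of 0.06 with genotype alone, 1.01 with the label term, 0.28 within the blood label and 1.72 within the spleen label, and Gins2, part of the DNA replication helicase, was at 18.2, 15.8 and 5.16 CPM in WT and at 28.9, 19.5 and 9.66 in KO. Of the 38 cell cycle genes 37 had an unadjusted p under 0.05 within the spleen label, where 1068 of all genes did (6.51%), and none within the blood label, where 253 did (1.54%). The smallest edgeR adjusted p over all genes within the spleen label was 0.365.

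**Figure D4:**
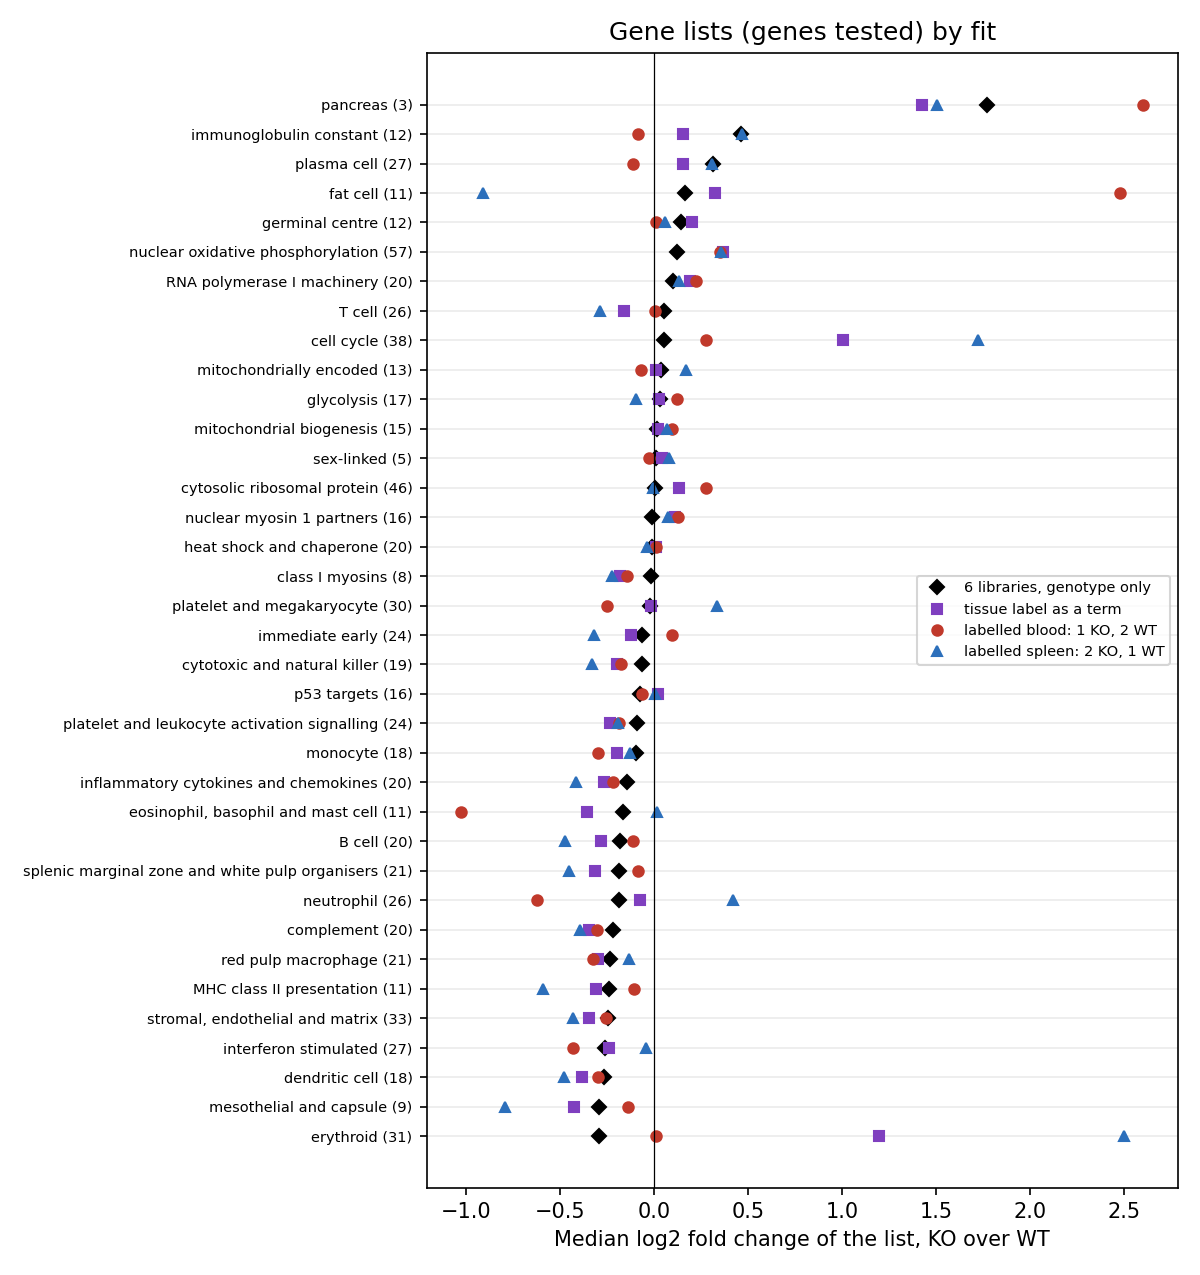
Median log2 fold change of KO over WT for 36 gene lists (number of genes tested in brackets) in 4 fits: genotype alone, tissue label as a term, and within each label. The erythroid median moves from -0.29 to 2.50 and that of cell cycle genes from 0.06 to 1.72. The medians of red pulp macrophage, dendritic cell, MHC class II and interferon-stimulated genes lie below 0 in all 4 fits. So do those of several other lists, among them B cell, monocyte, complement and stromal genes.

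Nuclear genes of oxidative phosphorylation, the respiratory chain and ATP synthase of mitochondria, lay mostly above 0 by small amounts. With genotype alone 52 of 57 did, with a median of 0.12, and the median was 0.37 with the label term, where 56 of 57 lay above 0 (50.2% of all genes did), 0.35 within the blood label and 0.36 within the spleen label. Cyc1, a subunit of complex III, was at 183, 157 and 99.3 CPM in WT and at 233, 192 and 116 in KO, with overlap and a log2 fold change of 0.30 ± 0.33, or 0.54 with the label term. The median was -0.18 without blood KO 04 and -0.10 without spleen WT 01. The 13 mitochondrially encoded genes had a median of 0.04. RNA polymerase I genes, which nuclear myosin 1 is known to serve, had 15 of 20 above 0 with a median of 0.10, and Polr1a, the catalytic subunit, had 0.23 ± 0.17. The 16 genes of nuclear myosin 1 partners had a median of -0.01, above 0 under the other scalings, with Myc, a transcription factor of growth, at 0.29 ± 0.18 (edgeR adjusted p 1.00).

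Myo1c itself, the gene that gives rise to nuclear myosin 1, lies at chr11:75650504-75673910 on GRCm38, plus strand. It was at 186, 222 and 160 CPM in blood WT 03, blood WT 04 and spleen WT 01, and at 172, 130 and 149 in blood KO 04, spleen KO 01 and spleen KO 04. The groups overlapped, with a log2 fold change of -0.33 ± 0.21 (edgeR adjusted p 1.00) and of -0.22 with the tissue label as a term. A count per gene adds up all forms of Myo1c, so it does not check the loss of the nuclear form. Of the 8 class I myosins, Myo1c included, 5 lay below 0, where 8548 of all 16413 genes did. Their log2 fold changes ran from -0.43 to 0.45 with a median of -0.02, and Myo1e was at -0.28 ± 0.27. Of 323 genes within 10 Mb of Myo1c 3 had an unadjusted p under 0.05 (0.929%), against 142 of 16090 elsewhere (0.883%).

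Markers of pancreas and fat were high in 1 and 2 libraries. The pancreas list of 20 genes summed to 728 unscaled CPM in blood KO 04 and to 15.7 to 127 in the other 5. Ctrl, a digestive protease, was at 33.3 CPM in blood KO 04 and at 1.21 to 4.19 elsewhere, with a log2 fold change of 2.06 ± 1.25 over all 6 libraries and of -0.88 without blood KO 04. Only 3 of its 20 genes passed the filter on low counts. The fat cell list of 13 genes summed to 719 CPM in spleen WT 01 and 690 in spleen KO 04 and to 75.7 to 154 in the other 4. The part of these tissues in the results above was not tested.

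The KO effect was compared between globin-poor and globin-rich libraries by an interaction over all 12 libraries. Of 17554 genes edgeR called 0 (0%), and 1106 had an unadjusted p under 0.05. By DESeq2 there were 47 calls, and edgeR called 94 when the globin-rich library blood KO 02 was left out. Myo1c was at 0.49 ± 0.27 in the globin-rich libraries against -0.33 in the globin-poor ones, with an interaction p of 0.0502 before adjustment and 0.793 after. For the blood against the spleen label within the globin-poor libraries, edgeR called no interaction of 16413 (0%), and 524 had a p under 0.05 before adjustment. Nothing described above is therefore shown to be particular to the globin-poor libraries or to either label.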

How the data were processed

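Each library was deposited as unnormalized counts for 46603 Ensembl identifiers. The submitters' processing notes list HTSeq, HISAT2 2.0.4, Trimmomatic 0.36, SAMtools 0.1.19 and FastQC, and GRCm38 (mm10). The annotation release and strand setting are not given in the sources used here, so reads of antisense or overlapping partners may not be separated. GENCODE vM21 gave symbols and positions for 46005 identifiers.

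The 13 globin genes were left out. Genes were kept with filterByExpr, scaled by TMM and tested in R 4.3.3 with edgeR 4.0.16 (quasi-likelihood, robust dispersions, Benjamini-Hochberg adjusted p under 0.05), with genotype as the only term. The SE of a log2 fold change was worked back from this test, as its absolute value divided by the square root of the F statistic. DESeq2 1.42.0 and limma-voom 3.58.1 were alternatives. Within a label 1 group has 1 library, and such a library adds nothing to the spread. The spread there comes only from blood WT 03 with blood WT 04 and from spleen KO 01 with spleen KO 04. The single libraries, blood KO 04 and spleen WT 01, are assumed to vary like these. List sums are unscaled CPM over all members. A count of 0 allows up to 3 counts, which is 0.106 to 0.130 CPM in these libraries. The fits were tested on simulated counts that held no difference between tissue labels. That simulation does not measure their power in these libraries. No pair of globin-poor libraries agreed within sampling noise (smallest chi-square per degree of freedom 17.3).

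The libraries, gene lists and naming rule were chosen with earlier results of these data known. The rule named Myo1c and the 3 markers, then the 12 genes per direction with the smallest p among genes of at least 1 CPM whose groups do not overlap (no predicted models, pseudogenes or receptor segments), then up to 3 genes per list. Some genes it takes are not reported here.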

Additional observations from a re-analysis of the deposited data

How the results depend on the processing

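DESeq2 called 5 genes higher in KO, and every other alternative run called 0 in either direction: other scalings and filters, globin kept, a 1.5-fold minimum, limma-voom, the tissue label, dispersions that were not robust, 1 fit of all 12 libraries, leaving out each of the 6 libraries (range 0 to 0), and, chosen after seeing the data, adding up blood KO 04 and spleen KO 04. The replicate block called 0 genes, with 41 at an unadjusted p under 0.05. The numbers were not taken to pair libraries. Deviations of same-numbered WT and KO libraries correlated at 0.26, -0.31 and -0.10. Blood WT 03 with blood KO 04, and spleen WT 01 with spleen KO 04, share a label but not a number, and each correlated at 0.79. Blood WT 03 with spleen KO 04 was at -0.80, and spleen WT 01 with blood KO 04 at -0.75. Differences by tissue label enter these correlations, so they cannot decide whether the numbers pair libraries. The globin-poor against globin-rich interaction gave 47 genes with DESeq2, 23 with no filter and 0 to 94 when single libraries were left out, 94 without blood KO 02 and 1 without spleen WT 04. The interaction with the tissue label gave 173 with no filter. The cause was not tested. Of 75 genes followed, 66 kept their direction under every alternative. Within the spleen label the log2 fold change turned in Spic (0.041), Cd5l (0.31), Xpo7 (0.67), Bpgm (1.63), Ctrl (-1.05) and Selp (0.19), and within the blood label in Ighg2b (-0.0062) and Igkv5-39 (-2.39). With the label term it turned in Cd5l (0.036), Xpo7 (0.12), Bpgm (0.57) and Igkv5-39 (-0.36), and with the replicate block in Cd5l (0.072). Leaving out each library gave -0.13 to 0.018 for Spic and -0.97 to 0.18 for Bpgm (above 0 without blood WT 04), -0.31 to 0.15 for Cd5l (above 0 without blood WT 03 or, at 0.0078, spleen KO 01), -0.88 to 2.60 for Ctrl (below 0 without blood KO 04) and -0.46 to 0.0047 for Clu (above 0 without spleen WT 01). Of 36 list medians, 6 kept their sign in every alternative: dendritic cell, germinal centre, interferon-stimulated, MHC class II, monocyte and red pulp macrophage. The precision is that of 3 libraries a group with 23.1 to 28.2 M counts each, and the effect of depth was not tested.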
